A study of Mus musculus with 7 samples.

Results

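RNA of genes that build the synaptonemal complex and carry out meiotic recombination was examined in mouse sperm on expression arrays. The set was named by gene symbol and held 36 genes. A gene was kept where the platform annotation gave its probe set exactly 1 symbol, and of several probe sets the one with the highest mean over 7 arrays was used. This left 35 genes among the 22154 on the array. The exception was Sycp3, the lateral element partner of Sycp2, whose probe set is shared with Chpt1. By role the 35 comprised 3 axis genes, 5 genes of the synaptonemal central region, 4 cohesin subunits, 15 recombination genes, 3 genes of telomere attachment and 5 genes of meiotic entry, intercellular bridges and the cell cycle.

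Sperm came from 3 groups, all on a C57BL/6 background. One array held C57BL/6 sperm RNA pooled from 5 males without the transgene. TG3 males carried a KDM1A transgene, inherited for 3 generations through heterozygous males mated to C57BL/6 females, and nonTG3 males were their littermates that did not inherit it. KDM1A is a histone lysine demethylase. TG3 and nonTG3 had 3 arrays each, and each array held RNA from 4 males. The line descends from transgenic founder females made by zygote injection. The sources used here do not give the ages of the males, the promoter of the transgene or the founder behind each pool. Pools are not stated to be free of shared males, and a p-value here speaks only to how far the pools differ. Below, "the line" means the 6 arrays of TG3 and nonTG3 together.

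Values are log2 intensities after RMA, as the authors deposited them, so 1 unit is a doubling, and a reading cannot be set against that of another gene because probes differ in brightness. The array medians lay between 3.52 and 3.61, and whether a reading below 3.52 lies above background was not measured. Of the 35 genes, 17 averaged below 3.52 on the line, a share of 48.6% against 43.4% of all probe sets. On all 7 arrays 10 genes read below 3.52, and 13 read above 3.61 on all 7. Kdm1a, the mouse gene of the transgenic enzyme, read 5.64 on the C57BL/6 array, 5.06, 5.27 and 5.27 on the TG3 arrays and 5.07, 5.27 and 5.27 on the nonTG3 arrays, so TG3 was not set apart from nonTG3. The sources do not say whether the Kdm1a probe set also detects RNA of the transgene. The C57BL/6 array, labelled sperm, read above its median for Cyp17a1 (6.56), a Leydig cell gene, and Cst9 (7.66), a Sertoli cell gene. Both were dim in the line. Of the marker lists described below, 3 of 5 Leydig genes and 1 of 9 Sertoli genes were called lower in the line, against 2.85% of all probe sets. The median difference of the Sertoli list was 0.02, with 5 of 9 higher in the line. Every comparison with C57BL/6 rests on that array.

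In meiotic prophase, homologous chromosomes pair, exchange DNA and are held together along their length. Cohesin complexes with meiosis-specific subunits fasten sister chromatids into a chromosome axis, SYCP2, SYCP3 and the HORMAD proteins assemble on it, and SYCP1 filaments with a central element join the axes as a zipper. SPO11 cuts DNA at sites marked by PRDM9, DMC1 and its partners invade the homologue, and MSH4, MSH5, MLH3 and others turn part of these events into crossovers. These genes are transcribed in spermatocytes, whereas sperm are transcriptionally near silent and keep RNA made earlier in spermatogenesis. In mouse somatic cells many of them are silenced through E2F6 and MGA, which bind E2F and E-box sequences, and MYBL1 (A-MYB) activates meiotic genes in mouse spermatocytes.

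The promoters below belong to Sycp1 and Smc1b, whose RNA was lower in the line, and to Stag3, the cohesin partner of Smc1b, and Hormad1, which did not pass the test. Each window runs from 250 bases before to 50 bases after the transcription start in RefSeq on build GRCm38.p6. Capitals mark the E-box CACGTG, the E2F sequence TTCCCGCC or its complement GGCGGGAA, and the MYB sequence AACNGTT, searched on both strands.
Sycp1, chr3:102936051-102936350, minus strand: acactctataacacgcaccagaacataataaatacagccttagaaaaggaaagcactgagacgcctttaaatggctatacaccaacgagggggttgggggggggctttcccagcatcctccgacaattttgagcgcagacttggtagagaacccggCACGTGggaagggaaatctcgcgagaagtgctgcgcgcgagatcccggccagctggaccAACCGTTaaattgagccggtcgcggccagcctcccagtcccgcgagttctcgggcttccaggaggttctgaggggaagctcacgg
Smc1b, chr15:85131908-85132207, minus strand: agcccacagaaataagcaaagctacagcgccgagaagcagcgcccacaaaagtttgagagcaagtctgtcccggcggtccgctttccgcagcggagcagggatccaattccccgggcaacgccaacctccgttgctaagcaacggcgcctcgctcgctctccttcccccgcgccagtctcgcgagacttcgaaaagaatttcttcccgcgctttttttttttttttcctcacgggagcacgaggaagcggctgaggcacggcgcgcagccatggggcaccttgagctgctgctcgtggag
Stag3, chr5:138280259-138280558, plus strand: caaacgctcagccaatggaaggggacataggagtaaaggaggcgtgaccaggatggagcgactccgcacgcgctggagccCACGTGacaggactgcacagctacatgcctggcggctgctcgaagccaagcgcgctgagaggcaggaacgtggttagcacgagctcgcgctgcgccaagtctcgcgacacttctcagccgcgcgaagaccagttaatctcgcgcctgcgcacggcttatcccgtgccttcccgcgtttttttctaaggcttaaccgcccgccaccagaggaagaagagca
Hormad1, chr3:95559427-95559726, plus strand: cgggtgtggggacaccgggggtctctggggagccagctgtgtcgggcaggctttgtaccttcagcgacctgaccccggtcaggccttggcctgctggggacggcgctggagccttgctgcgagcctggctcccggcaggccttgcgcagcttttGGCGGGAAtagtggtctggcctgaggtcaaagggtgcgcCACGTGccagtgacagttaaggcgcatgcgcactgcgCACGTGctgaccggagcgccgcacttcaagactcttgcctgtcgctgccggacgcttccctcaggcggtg
The Sycp1 window held an E-box whose first base lay at -94 from the start, and the MYB letters AACCGTT at -35. Hormad1 held E-boxes at -57 and -20 and the E2F letters at -96. Stag3 held 1 E-box at -170, and Smc1b held none of the letters searched.

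RefSeq gave 34 such windows for 29 of the 36 genes. Tex15, Spo11, Meiob, Tex11, Terb2, Ythdc2 and Majin had none in the table used. The E-box stood in windows of 6 of the 29 genes (20.7%), namely Hormad1, Stag3, Syce2, Sycp1, Sycp3 and Tex12, against 8.09% of 27025 genes in the table. The E2F letters stood in 6 of 29 (20.7%), namely Hormad1, Msh5, Prdm9, Syce2, Tex12 and Tex14, against 2.52% of all genes. The MYB letters were found in Sycp1 alone, 3.45% of the 29 against 5.01%, and the CRE letters TGACGTCA in none, against 2.03%. None of these matches overlapped one of another sequence. The windows were rich in CpG, with a median observed-to-expected ratio of 0.695 against 0.384 for all windows, and 61.3% GC against 52.7%. The E-box and E2F letters themselves hold a CG. Their shares were not compared with windows of like CpG content, so the part of CpG content in them was not tested. Among the 6 genes that passed the test below, 1 held an E-box, 0 the E2F letters and 1 the MYB letters. A match describes letters in the window and does not show binding.

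The line against C57BL/6 asks how sperm RNA of this line, with or without the transgene, differs from that of C57BL/6 males. Sycp2, Sycp1, Syce3, Smc1b, Psmc3ip and Ccna1 were lower in the line, and no gene of the set was higher. These 6 made up 17.1% of the set, where 2.85% of all 23493 probe sets with 1 symbol were lower by limma at an adjusted p under 0.05. The higher direction held 0 of 35, against 0.17% of all. Among them, Sycp2, Sycp1 and Syce3 are structural parts of the synaptonemal complex. The single C57BL/6 array has no replicate of its own and is assumed in the fit to vary like the other arrays. In bulk RNA, fewer cells of a type and less RNA per cell cannot be told apart.

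**Figure D1:**
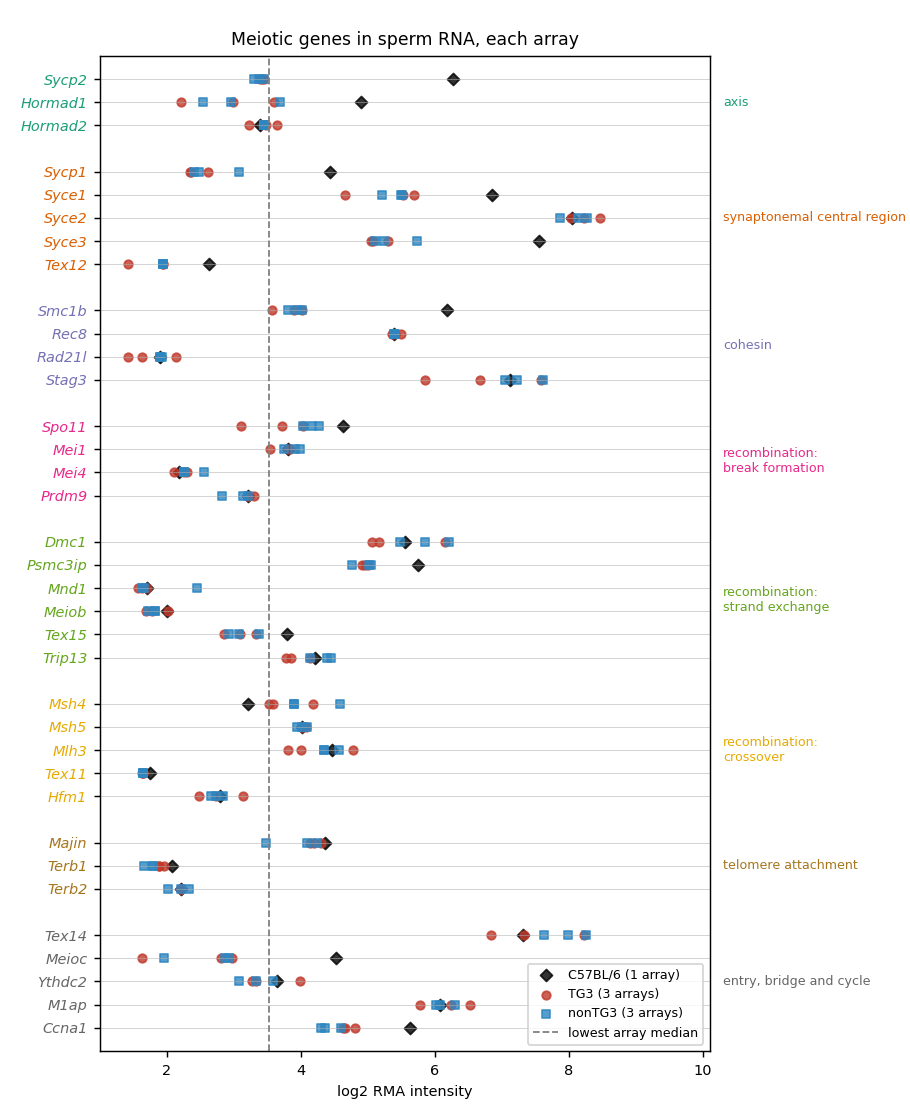
Log2 RMA intensity (horizontal axis) of the 35 genes on each array, grouped by role. Diamonds are the C57BL/6 array, circles the 3 TG3 arrays, squares the 3 nonTG3 arrays, and the dashed line is the lowest array median, 3.52. The diamonds of Sycp2, Syce3 and Smc1b lie far to the right of all 6 arrays of the line, whereas those of Syce2, Rec8 and Msh5 lie among them.

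The chromosome axis was represented by Sycp2, Hormad1 and Hormad2. Sycp2, a lateral element protein, read 6.26 in C57BL/6, 3.44, 3.38 and 3.41 in TG3 and 3.30, 3.44 and 3.37 in nonTG3. The difference was -2.86 log2 units (SE 0.10, limma adjusted p = 0.00176). The 6 arrays of the line lay within 0.14 units of each other and all below the array medians, so no fold is given. Hormad1, a HORMA domain protein that marks unsynapsed axes, read 4.89 in C57BL/6, 3.60, 2.21 and 2.99 in TG3 and 2.54, 2.95 and 3.69 in nonTG3. The C57BL/6 array was again the highest, but the arrays of the line spread over 1.47 units and the difference of -1.89 (SE 0.59) did not pass (limma adjusted p = 0.245). Hormad2, its relative, showed no such gap, with 3.38 in C57BL/6 and a mean of 3.44 ± 0.13 (SD, n = 6) in the line. However, the C57BL/6 reading was already below 3.52, so Hormad2 had less room to read lower. Its values were also tied, with 4 distinct values on the line.

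Among the 5 genes of the central region, Sycp1 and Syce3 passed the test. Sycp1, the transverse filament that bridges the axes, read 4.43 in C57BL/6, 2.34, 2.61 and 2.36 in TG3 and 2.40, 3.08 and 2.48 in nonTG3 (difference -1.89, SE 0.27, limma adjusted p = 0.0273). All 6 readings of the line fell under the array medians. Syce3, a central element protein, read 7.55 in C57BL/6, 5.29, 5.05 and 5.08 in TG3 and 5.10, 5.24 and 5.73 in nonTG3. It was 4.94-fold lower in the line and remained above the array medians on all arrays (log2 difference -2.30, SE 0.24, limma adjusted p = 0.0108). Syce1, another central element protein, read 6.85 in C57BL/6 and between 4.66 and 5.68 in the line, without overlap, but missed the threshold (-1.51, SE 0.38, limma adjusted p = 0.147). Tex12, which pairs with Syce2, read 2.63 in C57BL/6 and at most 1.94 in the line, all dim (adjusted p = 0.179).

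Syce2, the central element partner of Tex12, gave close readings in all groups. It read 8.05 in C57BL/6, 8.03, 8.22 and 8.46 in TG3 and 8.13, 7.86 and 8.26 in nonTG3. The groups overlapped, and the 95% interval of the difference ran from -0.41 to 0.63. Over axis and central region together the median difference was -1.70 log2 units for 8 genes, 3 of which passed. For the 15 recombination genes the median was -0.06 with 1 passing, and for all probe sets it was 0.04. On the C57BL/6 array 7 of these 15 genes read below 3.52, against 2 of the 8. Such dim genes had less room to read lower in the line.

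Of the 4 cohesin subunits of meiosis, Smc1b alone passed. Smc1b, the meiotic SMC1 subunit, read 6.18 in C57BL/6, 4.01, 3.90 and 3.57 in TG3 and 3.81, 3.94 and 4.01 in nonTG3. It was 4.95-fold lower in the line (log2 difference -2.31, SE 0.18, limma adjusted p = 0.00482). The fold rests on readings of the line close to the array medians. On TG3 replicate 3 Smc1b (3.57) was below the median of that array, 3.61. The 3 partners of Smc1b did not pass. Stag3, the subunit that binds the cohesin ring in meiosis, read 7.12 in C57BL/6, 7.58, 6.67 and 5.85 in TG3 and 7.04, 7.22 and 7.61 in nonTG3, with C57BL/6 inside the range of the line. Rec8, a kleisin that closes the ring, read 5.38 in C57BL/6, while the line averaged 5.39 ± 0.05 (SD, n = 6), with a 95% interval of the difference from -0.23 to 0.27. For Stag3 that interval, -1.60 to 1.34, was wide. Rad21l, the other meiotic kleisin, was dim on all arrays, at 1.89 in C57BL/6 and between 1.42 and 2.13 in the line.

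Genes of DNA break formation gave 0 of 4 calls. Spo11, the enzyme that cuts the DNA, read 4.62 in C57BL/6, 4.03, 3.72 and 3.10 in TG3 and 4.26, 4.16 and 4.03 in nonTG3. C57BL/6 was above all arrays of the line, but the difference of -0.74 (SE 0.33) did not pass (limma adjusted p = 0.473). Mei1, needed for break formation in mice, read 3.80 in C57BL/6, while the line averaged 3.80 ± 0.16 (SD, n = 6). Mei4, a part of the break machinery, and Prdm9, the histone methyltransferase that sets hotspots, averaged below 3.52, with differences of 0.10 and -0.06.

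Of the 6 genes of strand exchange, Psmc3ip passed. Psmc3ip (HOP2), which works with MND1 to help DMC1, read 5.75 in C57BL/6, 4.95, 4.91 and 5.00 in TG3 and 5.01, 4.76 and 5.04 in nonTG3. The step was small but even, 1.74-fold (log2 difference -0.80, SE 0.14, limma adjusted p = 0.0467), and it did not pass when any 1 of the 6 arrays of the line was left out (adjusted p from 0.0522 to 0.113). Dmc1, the meiotic recombinase, read 5.55 in C57BL/6, 6.15, 5.16 and 5.06 in TG3 and 5.47, 5.85 and 6.20 in nonTG3, with C57BL/6 in the middle of the line. Tex15, needed to load recombinases in mouse spermatocytes, read 3.79 in C57BL/6, while the line averaged 3.10 ± 0.21 (SD, n = 6), without overlap (adjusted p = 0.270). Trip13, an ATPase that remodels HORMAD proteins, read 4.20 in C57BL/6 and between 3.77 and 4.45 in the line. Mnd1 and Meiob, a single-strand binding protein, were dim, with no reading above 2.45, that of Mnd1 on nonTG3 replicate 1.

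Crossover genes gave 0 of 5 calls. Msh4, a MutS protein that stabilises crossover intermediates, was the only gene of the set with C57BL/6 below all arrays of the line. It read 3.20 in C57BL/6, 4.18, 3.58 and 3.52 in TG3 and 3.90, 3.90 and 4.58 in nonTG3 (difference 0.75, SE 0.35, limma adjusted p = 0.522). Its partner Msh5 read 4.01 in C57BL/6, while the line averaged 4.02 ± 0.06 (SD, n = 6), a 95% interval from -0.25 to 0.28 around 0.02. Msh5 too was tied, with 4 distinct values on the line. Mlh3, a crossover nuclease subunit, read 4.46 in C57BL/6, 4.78, 3.81 and 4.00 in TG3 and 4.34, 4.34 and 4.57 in nonTG3, again overlapping. Hfm1, a helicase, and Tex11, an X-linked crossover protein, were dim, and Tex11 had 1.64 on 5 of the 6 arrays of the line, 1.62 on the other and 1.75 in C57BL/6.

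The genes that tie telomeres to the nuclear envelope gave 0 of 3 calls. Majin, the membrane anchor, read 4.36 in C57BL/6, 4.30, 4.14 and 4.19 in TG3 and 3.48, 4.23 and 4.09 in nonTG3. C57BL/6 was the highest, by a small margin over TG3 replicate 1. Terb1 and Terb2, its partners, were below 3.52 on all 7 arrays, with differences of -0.25 and -0.01.

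Among genes of meiotic entry, bridges and the cycle, Ccna1 passed. Ccna1, the germ cell cyclin A needed to leave prophase in mouse males, read 5.62 in C57BL/6, 4.81, 4.66 and 4.62 in TG3 and 4.36, 4.29 and 4.60 in nonTG3. It was 2.09-fold lower in the line (log2 difference -1.07, SE 0.15, limma adjusted p = 0.0253). Meioc, which keeps spermatocytes in the meiotic programme, read 4.52 in C57BL/6, 2.81, 2.97 and 1.63 in TG3 and 1.95, 2.87 and 2.92 in nonTG3. The difference of -2.0 was among the larger ones, but with an SE of 0.59 it did not pass (limma adjusted p = 0.218). Its RNA-binding partner Ythdc2 read 3.64 in C57BL/6 and between 3.07 and 3.98 in the line. Tex14, a protein of intercellular bridges, read 7.31 in C57BL/6, 8.22, 7.33 and 6.84 in TG3 and 7.62, 7.98 and 8.25 in nonTG3, and M1ap, needed for male meiosis, read 6.08 in C57BL/6, while the line averaged 6.15 ± 0.26 (SD, n = 6). For both, C57BL/6 lay inside the range of the line.

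**Figure D2:**
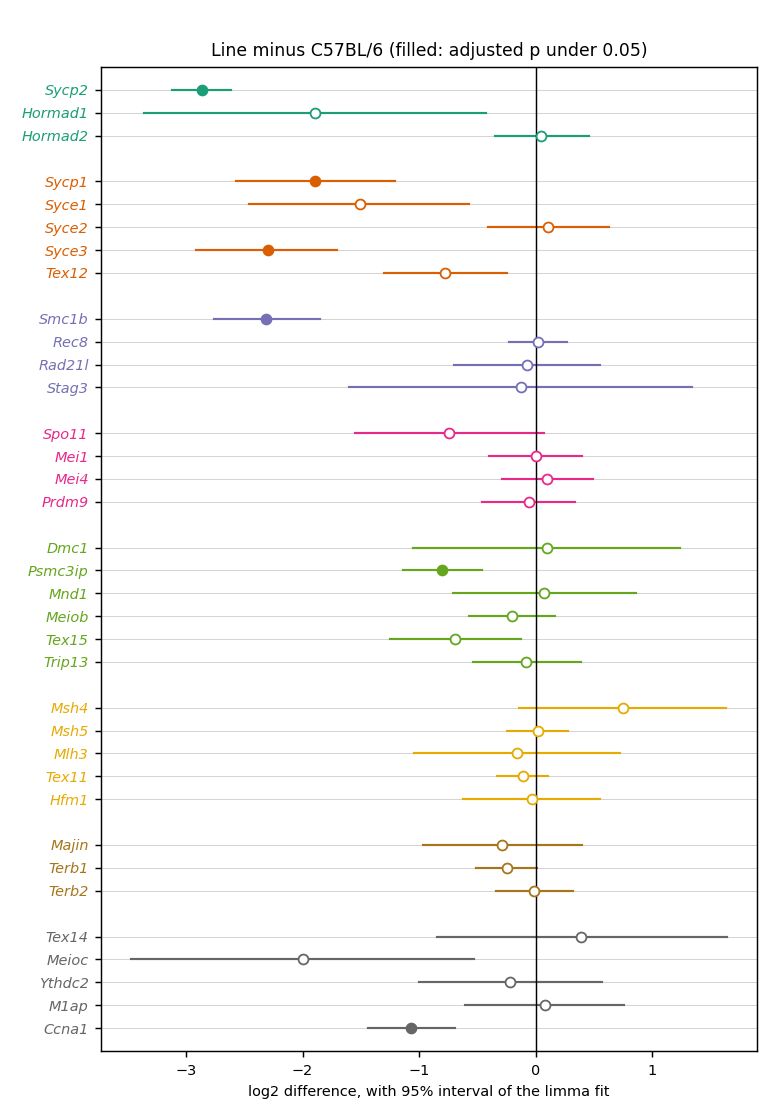
Difference in log2 intensity between the line and the C57BL/6 array (horizontal axis) for the 35 genes, with the 95% interval of the limma fit. Filled points are the 6 genes with an adjusted p under 0.05, from -2.86 for Sycp2 to -0.80 for Psmc3ip, and open points did not pass. Hormad1, Meioc, Syce1, Tex12 and Tex15 are open although their intervals lie below 0.

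Over the 35 genes the median difference was -0.13 log2 units, with 25 lower and 10 higher, where 38.9% of all probe sets were lower. By role the medians were -1.89 for the axis, -1.51 for the central region, -0.10 for cohesin, -0.03 for break formation, -0.14 for strand exchange, -0.03 for crossover, -0.25 for telomere attachment and -0.22 for entry, bridge and cycle. The set thus held a minority with large differences and a majority near 0. However, 12 of the 35 genes (34.3%) already read below 3.52 on the C57BL/6 array and had less room to read lower. The part of this limit in the medians by role was not tested. C57BL/6 lay above all arrays of the line for 15 genes (42.9%), against 14.3% of all probe sets, and below all of them for 1 gene (2.86%), against 18.2%. For the remaining 19 it lay inside the range of the line.

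The same C57BL/6 array serves both TG3 and nonTG3, so the separate comparisons are not independent. TG3 against C57BL/6 gave 4 of 35 genes lower, Sycp2, Sycp1, Syce3 and Smc1b, where 2.41% of all probe sets were lower, and 0 higher, against 0.119%. In nonTG3 against C57BL/6 the same 4 and Ccna1 were lower, where 2.43% of all were lower, and 0 higher, against 0.0936%. Log2 differences in TG3 and nonTG3 were -2.85 and -2.88 for Sycp2 and -2.35 and -2.26 for Smc1b. Those of Syce3 were -2.41 and -2.20. In fits on only the groups compared, with 2 residual degrees of freedom, TG3 gave 0 of 35 genes and 0 of 23493 probe sets (2877 had an unadjusted p under 0.05), and nonTG3 gave 54 probe sets, with Sycp2 the only one of the 35 genes (adjusted p = 0.0479). In the shared fit the 4 genes became 2 without TG3 replicate 2 or 3. The 5 became 3 without nonTG3 replicate 2, and 2, Sycp2 and Smc1b, without nonTG3 replicate 1 or any 1 TG3 array. Outside the 5, Tex12 passed without TG3 replicate 1 and Syce1 without TG3 replicate 3. TG3 arrays matter here since the fit shares 1 estimate of spread. For Sycp2, Smc1b and Syce3, TG3 and nonTG3 lay about equally far from C57BL/6.

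Without any 1 array of the line, 3 or 4 genes passed, with 3 without TG3 replicate 2 and without nonTG3 replicate 1. Sycp2, Syce3 and Smc1b passed each time (highest adjusted p 0.0127, 0.0489 and 0.0285). Sycp1 passed only without nonTG3 replicate 2 and Ccna1 only without nonTG3 replicate 3. Genes outside the 6 passed in a pair of these fits: Tex12 without TG3 replicate 1 (-0.69, adjusted p = 0.0369), where the other 5 arrays of the line were tied, and Syce1 without TG3 replicate 3 (-1.35, adjusted p = 0.0436). Without both TG3 replicate 1 and nonTG3 replicate 3, described below, 0 of 35 genes and 0 of 23493 probe sets passed in limma with 2 residual degrees of freedom, and 3213 probe sets had an unadjusted p under 0.05. The 6 differences then ran from -2.87 for Sycp2 to -0.83 for Psmc3ip, with adjusted p from 0.0653 to 0.203.

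Genes of other cells of the testis also differed between C57BL/6 and the line. Markers of pachytene spermatocytes averaged 6.14 in C57BL/6 and 5.09 to 5.22 on the arrays of the line, with 4 of 10 lower (Clgn, Hspa2, Ldhc and Ybx2), where 2.85% of all probe sets were lower and 0.17% higher. Round spermatid markers averaged 6.25 against 4.52 to 4.99, with 4 of 9 lower, and markers of elongating spermatids and sperm 10.55 against 9.60 to 9.91, with 3 of 10 lower. Leydig cell markers averaged 4.07 against 2.37 to 2.68, with 3 of 5 lower (Cyp17a1, Hsd3b6 and Star). Cyp17a1, a steroid enzyme, read 6.56 in C57BL/6, while the line averaged 2.40 ± 0.25 (SD, n = 6), but Cyp11a1, another, read 3.20 and 3.21 ± 0.09. Sertoli cell markers averaged 4.12 against 3.34 to 3.67, with only Cst9, a cystatin, lower, at 7.66 against 2.94 ± 0.36 (SD, n = 6). The other 8 did not pass, the median difference of the list was 0.02 and 5 of 9 were higher in the line, among them Sox9 (4.25 against 4.45 ± 0.24) and Gata4 (4.18 against 4.24 ± 0.03), both transcription factors. Spermatogonial markers averaged 3.90 against 3.85 to 4.24 with 0 of 12 called, leukocyte markers 3.49 against 3.32 to 3.83 with 0 of 12 called, and epididymal markers 4.47 against 4.17 to 4.93 with 1 of 8 higher (Lcn8). Among genes of late spermatids and sperm, the called ones were Tnp1, a transition protein, at 12.40 in C57BL/6 while the line averaged 9.51 ± 0.21 (SD, n = 6), and the protamine genes Prm1 and Prm3. Smcp and Odf1, sperm structural genes, read 11.88 and 11.55 in C57BL/6 and 11.80 ± 0.20 and 11.51 ± 0.33 (SD, n = 6) in the line. Their RNA is made in spermatids, so these readings do not tell sperm from testis tissue. No probe set with 1 symbol was found for Acrbp, Prm2, Trf, Insl3, Lhcgr, Crisp1 and Cst8 of these lists. The part of other cells in the differences of the meiotic genes was not tested.

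**Figure D3:**
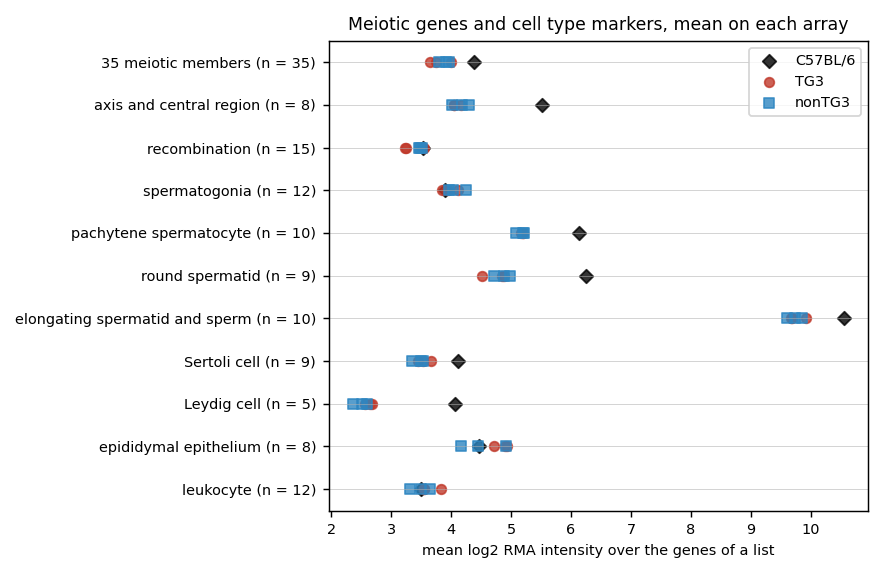
Mean log2 RMA intensity over the genes of each list (horizontal axis) on each array; diamonds are C57BL/6, circles TG3 and squares nonTG3, and n is the number of genes with a probe set. The diamond lies to the right of all 6 arrays of the line for the 35 meiotic genes (4.38 against 3.65 to 4.00) and for pachytene, round spermatid, elongating spermatid and Leydig markers. It does so for Sertoli markers too, of which Cst9 alone passed and the median difference was 0.02, and lies within the line for spermatogonial markers.

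A second list of 62 further meiotic genes had 52 with a probe set. Of these, 6 were lower in the line (11.5%, against 2.85% of all probe sets) and 0 higher (against 0.17%), with a median of -0.14. Six6os1 (4930447C04Rik in the annotation), a central element protein, read 3.76 in C57BL/6, while the line averaged 2.17 ± 0.12 (SD, n = 6), and Brdt, a testis bromodomain protein, 5.14 and 4.00 ± 0.18 (SD, n = 6). These were the genes with a probe set in the synapsis role of this list, and both passed (limma adjusted p = 0.00771 and 0.0303). Fkbp6, of the same role, had no probe set. Of the genes that passed here, only Six6os1 is a structural part of the synaptonemal complex. Atr, the kinase of unsynapsed chromatin, read 5.56 and 3.81 ± 0.19 (SD, n = 6), and H2ax, the histone it phosphorylates, 6.38 and 5.08 ± 0.22 (SD, n = 6). Hspa2, a chaperone needed for desynapsis in mouse spermatocytes, read 6.86 and 5.31 ± 0.17 (SD, n = 6), and Ccnb2, a cyclin of division, 6.54 and 5.35 ± 0.13 (SD, n = 6). Adjusted p-values of these 4 lay between 0.0120 and 0.0167. Hspa2, Mybl1 and Aurkc stand in both this list and that of pachytene markers.

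Other genes of that list did not pass. Among 6 further genes of break formation, 7 of crossover, 4 of telomeres and the envelope and 9 of cohesion, 0 were called, and their medians were 0.11, 0.03, -0.08 and 0.09. Smc3, a cohesin subunit shared with dividing cells, read 6.97 in C57BL/6, while the line averaged 7.17 ± 0.44 (SD, n = 6), and Mus81, a junction nuclease, 5.66 and 5.80 ± 0.39 (SD, n = 6). Brca1, a repair protein, read 7.02 and 7.62 ± 0.52 (SD, n = 6), and Sun2, of the envelope bridge, 4.71 and 4.93 ± 0.22 (SD, n = 6). Zcwpw2, a relative of the PRDM9 mark reader ZCWPW1, read 6.31 and 6.60 ± 0.53 (SD, n = 6). In all 5 the C57BL/6 reading lay inside the range of the line.

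TG3 against nonTG3 asks how the RNA differs with the transgene among littermates. None of the 35 genes passed, and 0% of all probe sets did, in either direction. The smallest adjusted p in the table was 0.923. At an unadjusted p under 0.05, limma gave 1 of the 35, Trip13, against 2.38% of all probe sets. An exact permutation test of 3 arrays against 3 cannot go below p = 0.1. The median difference was -0.09 log2 units, with 20 genes lower in TG3 and 15 higher, and that of all probe sets was 0.0045.

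**Figure D4:**
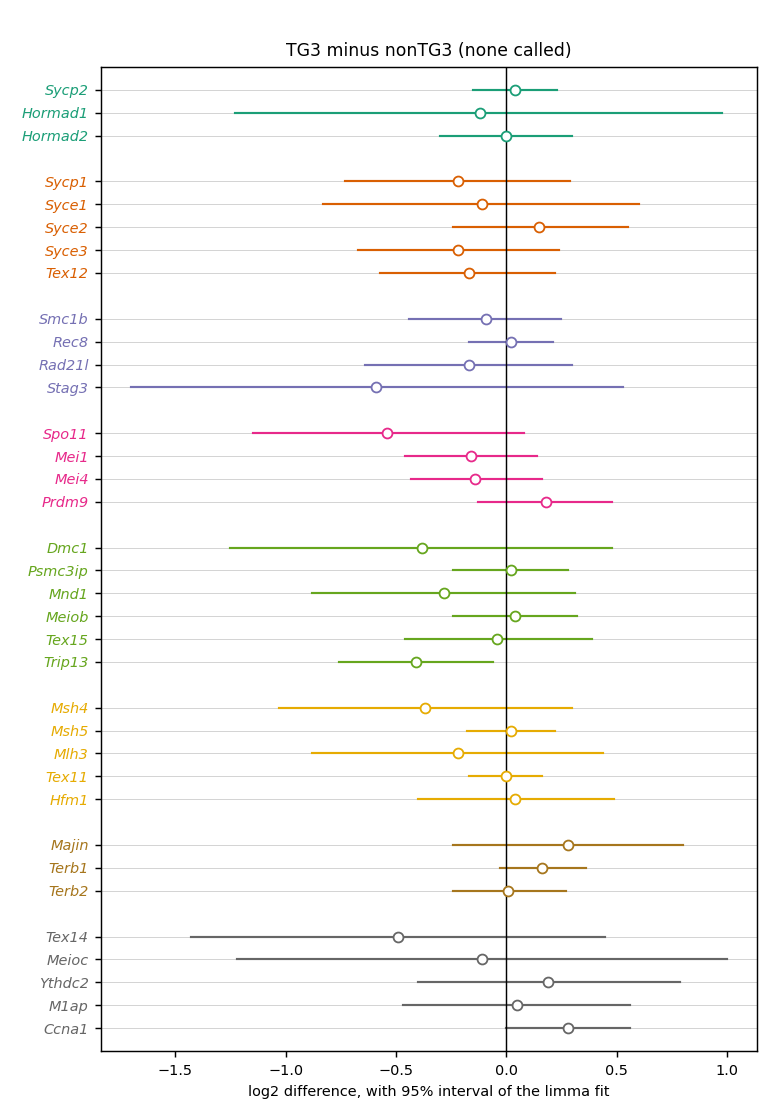
Difference in log2 intensity between TG3 and nonTG3 (horizontal axis) for the 35 genes with the 95% interval of the limma fit, grouped by role. All points are open because 0 genes passed, and the widest intervals belong to Stag3, Hormad1 and Meioc.

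The genes with the smallest p-values among those lower in TG3 were Trip13, Spo11 and Msh4. Trip13 read 4.14, 3.77 and 3.85 in TG3 and 4.14, 4.39 and 4.45 in nonTG3, so the groups met at 4.14 (difference -0.41, 95% interval -0.76 to -0.06). For Spo11, with the readings given above, the difference was -0.54 with an interval from -1.15 to 0.08, and TG3 replicate 3 was the lowest array. For Msh4 the difference was -0.37, with an interval from -1.03 to 0.30. Among genes higher in TG3 they were Ccna1, Terb1 and Prdm9. Ccna1 was higher on all 3 TG3 arrays than on all 3 nonTG3 arrays, by 0.28 log2 units on average (interval 0.00 to 0.56). Terb1 read 1.95, 1.88 and 1.88 in TG3 and 1.65, 1.79 and 1.79 in nonTG3, all below the array medians (difference 0.16, interval -0.03 to 0.36). Prdm9 read 3.29, 3.20 and 3.20 in TG3 and 3.14, 3.20 and 2.82 in nonTG3, with tied values (difference 0.18, interval -0.13 to 0.48). All 6 had an adjusted p of 0.923 in limma.

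Groups without overlap were rare. TG3 lay above nonTG3 for 2 genes, Ccna1 and Terb1 (5.71% against 2.47% of all probe sets), and below it for 0 (against 1.65%). The genes that set the line apart from C57BL/6 had these 95% intervals between TG3 and nonTG3: -0.15 to 0.23 for Sycp2, -0.44 to 0.25 for Smc1b, -0.24 to 0.28 for Psmc3ip and -0.67 to 0.24 for Syce3. For Sycp1 the interval was -0.73 to 0.29. Stag3 gave the largest difference of the set in size, -0.59, with an interval of -1.70 to 0.53. Median differences by role were 0.00 for the axis, -0.17 for the central region, -0.13 for cohesin, -0.15 for break formation, -0.16 for strand exchange, 0.00 for crossover, 0.16 for telomere attachment and 0.05 for entry, bridge and cycle. Of the further list, all 9 cohesion genes had a lower mean in TG3 (median -0.30), where 48.7% of all probe sets were lower, and 0 passed. TG3 and nonTG3 overlapped for each of them. Smc3, the brightest, read 7.40, 6.91 and 6.46 in TG3 and 7.10, 7.55 and 7.60 in nonTG3. A p that misses the threshold does not show equal levels.

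Arrays of the same group also differed among themselves. RNA of 7 mitochondrially encoded genes averaged 11.25 in C57BL/6, 8.99, 11.36 and 11.50 in TG3 (replicates 1 to 3 in turn) and 11.55, 10.02 and 9.13 in nonTG3. TG3 replicate 1 and nonTG3 replicate 3 had the lowest mitochondrial readings. On both of these arrays 10 of the 35 meiotic genes (28.6%) read higher than on the other 4 arrays of the line, against 13.9% of all probe sets. They were Hormad1, Syce3, Smc1b, Rad21l, Stag3, Dmc1, Msh4, Mlh3, Hfm1 and Tex14. Dmc1, for example, read 6.15 and 6.20 on these 2 arrays and 5.06 to 5.85 on the other 4. No gene was lower on both, against 9.93% of all. The part of mitochondrial RNA in these readings was not tested.

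TG3 replicate 3 was the lowest array of the line for 12 genes (34.3%), against 19.2% of all probe sets. Among them were Stag3 at 5.85, Tex14 at 6.84, Syce1 at 4.66, Spo11 at 3.10 and Meioc at 1.63. Ranges within the line exceeded 1 unit for Stag3 (1.76), Hormad1 (1.47), Tex14 (1.41), Meioc (1.33), Spo11 (1.16), Dmc1 (1.14), Msh4 (1.06) and Syce1 (1.03). Rec8 (0.14) and Msh5 (0.16), which read above the array medians, varied little. RMA's summary gave ties: 9 of the 35 genes (25.7%), Rec8 and Msh5 among them, had 4 or fewer distinct values on the line, against 30.9% of all probe sets.

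**Figure D5:**
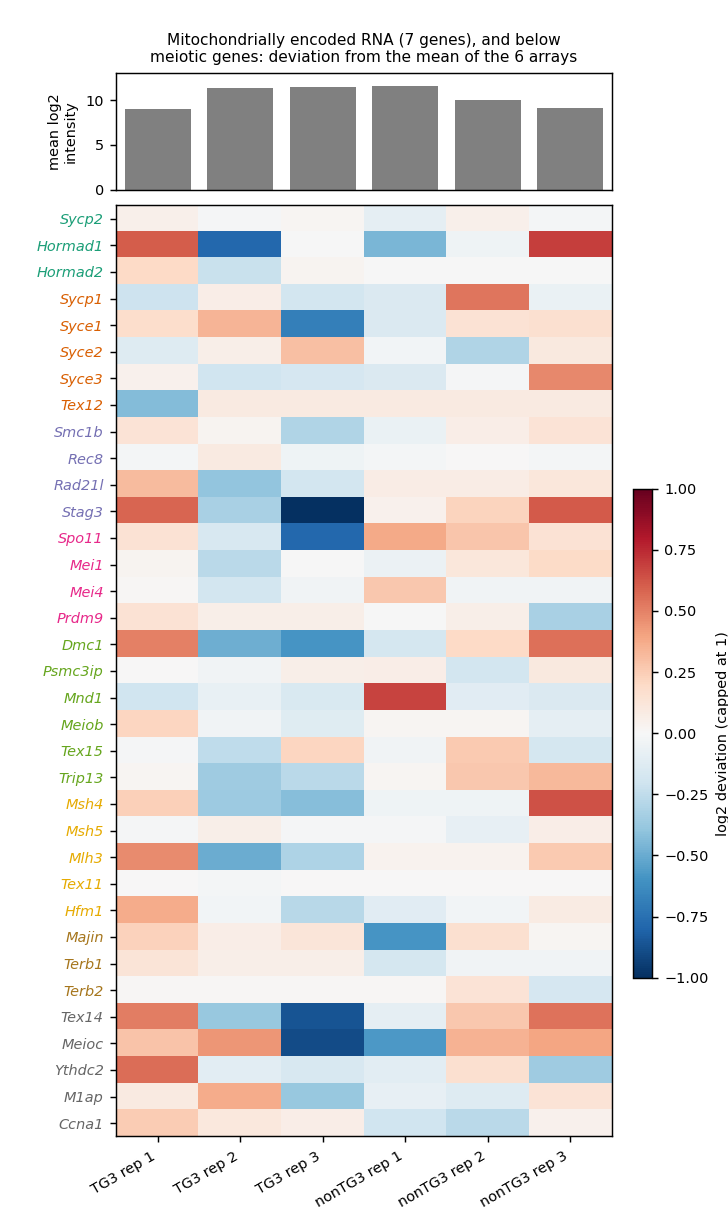
Upper panel: mean log2 intensity of 7 mitochondrially encoded genes on each array of the line. Lower panel: log2 deviation of each of the 35 genes (rows) from its mean over the 6 arrays (columns), red higher and blue lower, with the colour scale capped at 1. TG3 replicate 1 and nonTG3 replicate 3, with the lowest bars, share red cells in Hormad1, Stag3, Dmc1 and Tex14, and TG3 replicate 3 is the most blue in Stag3, Spo11, Tex14 and Meioc.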

How the data were processed

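Sperm RNA was amplified and hybridised to Affymetrix whole-transcript arrays, per the labels' protocols. The table the authors deposited holds log2 intensities after RMA, made in R 3.1.0 with oligo, and limma is also named, per the submitters' processing notes. The sources used here give no filter, build or scan batch. The number of arrays limits the precision, since arrays have no read depth. Of 33604 probe sets, 23493 had 1 gene symbol in the platform annotation, 1801 had several and 8310 had none. RefSeq's gene table matched 23300 of the former by Entrez identifier and changed 0 symbols.

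limma 3.58.1 in R 4.3.3 fitted 1 mean per group to the 7 arrays, with eBayes and 4 residual degrees of freedom. Benjamini-Hochberg adjustment ran over 23493 probe sets in each of 4 contrasts, and an adjusted p under 0.05 passed. The limma fit was tested on simulated data for some of these contrasts. Values on every array are printed for genes that passed, for the 3 smallest p-values in each direction of TG3 against nonTG3, and for the gene of each role with the highest mean over the arrays. Other meiotic genes were named where they passed or had the highest mean of their role, and markers where they were among the brightest of their list or had no probe set of their own. Further readings of Hormad1, Meioc and other genes of the set, and the markers named because they passed, were chosen after their values were seen. The genes, the lists and the tests were chosen with earlier results of these data known. Alternatives covered normalization, eBayes settings, filters, thresholds, arrays left out and the replicate number as a block. Promoter windows came from RefSeq (GRCm38.p6), and figures were drawn with matplotlib 3.10.9.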

Additional observations from a re-analysis of the deposited data

Results flagged for a closer look

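TG3 and nonTG3 have 3 arrays each, too few for a test of outliers, so each of the 35 genes was tested over the 6 arrays of the line. In 8 genes 1 array stood apart by Dixon's test (gap to the nearest array over the whole range, at the 95% critical value). The nominal rate of about 1 in 20 assumes values without ties. The share of all probe sets flagged this way was not measured, so the 8 genes cannot be called many or few. Sycp1 read 3.08 and Syce3 read 5.73 on single nonTG3 arrays, replicates 2 and 3, both higher than the other 5 arrays. Mnd1 read 2.45 and Majin read 3.48 on nonTG3 replicate 1, Mnd1 as the highest and Majin as the lowest array. Rec8 read 5.49 on TG3 replicate 2, the highest, and Prdm9 read 2.82 on nonTG3 replicate 3, the lowest. Tex12 read 1.42 on TG3 replicate 1 and Tex11 read 1.62 on TG3 replicate 2, each below 5 exactly equal arrays. Of the 8 genes, 4 had 4 or fewer distinct values on the line, so small steps counted as gaps there.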

How the results depend on the processing

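The single C57BL/6 array carries every comparison with it, signal over background was not measured for probe sets below the array medians, and ties narrow the spread of some genes. The 6 genes lower in the line kept their direction under all alternatives run (18 each, 17 for Sycp1, which the filter on dim probe sets removed). Sycp2, Syce3 and Smc1b passed in 17 of 18, Ccna1 in 12 of 18, Sycp1 in 11 of 17 and Psmc3ip in 6 of 18. Psmc3ip missed after a repeated quantile normalization (adjusted p = 0.103), with a trend (0.0616) or robust (0.055) prior and over all probe sets of the table (0.0578).

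With 1 array left out, the genes passing numbered 3 to 4 for the line, 2 to 3 for TG3 against C57BL/6, 2 to 4 for nonTG3 against C57BL/6 and 0 for TG3 against nonTG3. Without both TG3 replicate 1 and nonTG3 replicate 3 the first 3 counts were 0, 0 and 0, in a fit with fewer samples. Fits on only the groups compared, also with fewer samples, gave 0 for TG3 and 1 for nonTG3 against C57BL/6. With arrays centred on their medians or after cyclic loess, the share of all probe sets lower in the line rose from 38.9% to 51.5% and 55.3%.

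Median differences by role moved as follows. In the line against C57BL/6, the axis was at -2.05 with array weights, -2.86 under the filter on dim probe sets, which left Sycp2 alone, and -2.22 without both arrays, with -2.06 to -1.71 over single arrays left out. Cohesin was at -0.20 after cyclic loess and -0.30 without both arrays, with -0.26 to -0.01 over single arrays. The filter on dim probe sets gave -0.37 for break formation and 0.08 for entry, bridge and cycle. In TG3 against nonTG3 the filter gave -0.35 for break formation, -0.38 for strand exchange, -0.22 for crossover and 0.28 for telomere attachment, which ran from 0.05 to 0.19 over single arrays. Without both arrays cohesin was at -0.25 and entry, bridge and cycle at -0.11, with -0.28 to -0.05 and -0.12 to 0.31 over single arrays. Other causes of these shifts were not tested.

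The replicate number as a block gave 0 calls and a median of -0.09 for TG3 against nonTG3, as without the block. Deviations of arrays with the same number correlated at -0.449, 0.016 and -0.403, and those of TG3 replicate 1 and nonTG3 replicate 3 at 0.552. Each deviation was taken from the mean of its own group. These values therefore cannot show whether pools of the same number were collected or processed together.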

Other observations

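Sycp3, the lateral element protein that partners Sycp2, is read only by a probe set shared with Chpt1, a gene of phospholipid synthesis, so its signal cannot be assigned to either gene. That probe set read 5.58 in C57BL/6, 4.30, 4.38 and 3.74 in TG3 and 4.38, 4.38 and 4.29 in nonTG3. C57BL/6 lay above all 6 arrays of the line (log2 difference -1.34, SE 0.24), and limma over all probe sets of the table gave an adjusted p of 0.0666. A second Mei4 probe set, dimmer than the one used, read 1.55 in C57BL/6 and 1.61 to 1.87 in the line.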
